A study of Mus musculus with 4 samples.

Results

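The 8 genes described here, Lgr5, Ascl2, Olfm4, Smoc2, Slc12a2, Gkn3, Rgmb and Tnfrsf19, are markers of the stem cells at the base of the intestinal crypt. They were chosen by name, with earlier results of these data known, and are 8 of the 31053 genes in the count matrices. Each symbol matched 1 gene. All 8 had UMIs (unique molecular identifiers, the count of captured RNA molecules) in the cells of all 4 libraries. Single-cell RNA libraries were prepared from TOM+ cells of mouse duodenal crypts, 2 from WT mice (Atoh1CreER-T2;R26RTom) and 2 from APC-KO mice (labelled Atoh1Cre;Apcfl/fl;R26RTom, while the series text gives Atoh1CreER-T2 for this genotype as well). R26RTom makes a cell fluoresce red once Cre has acted in it, and the Atoh1 driver aims Cre at cells of the secretory lineage, so both the sorted cells and the Apc deletion depend on that driver. Mice of both groups received tamoxifen (1 mg/mL) in 2 doses, with 24 h between them, and crypts were collected 12 h after the last dose. The labels give no animal, age, sex or batch for a library. Whether the 2 libraries of a genotype come from separate mice is not stated, so p-values measure the spread between these libraries, which may be technical.

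In GRCm38 coordinates (GENCODE annotation), all 8 are protein-coding. Lgr5 is on chromosome 10 from 115450311 to 115587780 (minus strand), Ascl2 on chromosome 7 from 142966829 to 142969264 (minus), Olfm4 on chromosome 14 from 79984081 to 80023139 (plus) and Smoc2 on chromosome 17 from 14279506 to 14404790 (plus). Slc12a2 is on chromosome 18 from 57878678 to 57946821 (plus), Gkn3 on chromosome 6 from 87383256 to 87388935 (minus), Rgmb on chromosome 17 from 15803188 to 15831039 (minus) and Tnfrsf19 on chromosome 14 from 60963875 to 61046490 (minus).

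Crypt stem cells divide continuously and renew all epithelial cell types, and Wnt signalling maintains them. A Wnt signal releases beta-catenin from a destruction complex that Apc scaffolds; beta-catenin then acts with TCF/LEF factors at target genes. Lgr5 is the receptor for R-spondins, which enhance the Wnt signal, and Ascl2 is a basic helix-loop-helix transcription factor that controls stem cell identity. Olfm4 is a secreted glycoprotein, Smoc2 a secreted calcium-binding matrix protein, Slc12a2 the basolateral sodium, potassium and chloride cotransporter (NKCC1), Gkn3 a secreted protein of the gastrokine family, Rgmb a membrane-anchored co-receptor for bone morphogenetic proteins, and Tnfrsf19 (Troy) a receptor of the tumour necrosis factor receptor family.

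Because TCF/LEF factors are the nuclear end of the pathway that Apc restrains, stretches of 250 bases before the transcription start were searched for CTTTGA. It is a form of the TCF/LEF core, was sought on both strands (TCAAAG on the other) and is called the core here. Other forms of the TCF/LEF core were not searched. RefSeq start sites (GRCm38.p6) gave such stretches for Ascl2, Olfm4, Gkn3, Rgmb and Tnfrsf19, 8 in all. Lgr5, Smoc2 and Slc12a2 were not among the RefSeq promoters used here. The Ascl2, Olfm4 and Gkn3 stretches, those of the matched genes whose UMIs lay mostly in stem cells at usable depth, and the Tnfrsf19 stretch that holds the core are shown 5′ to 3′ on the gene's strand, with the core in capitals.
Ascl2, chr7:142969265-142969514, minus strand: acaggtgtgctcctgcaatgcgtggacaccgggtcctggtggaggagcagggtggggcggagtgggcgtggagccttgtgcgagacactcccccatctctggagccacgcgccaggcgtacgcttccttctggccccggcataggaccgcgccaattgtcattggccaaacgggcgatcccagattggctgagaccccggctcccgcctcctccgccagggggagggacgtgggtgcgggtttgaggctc
Olfm4, chr14:80000052-80000301, plus strand: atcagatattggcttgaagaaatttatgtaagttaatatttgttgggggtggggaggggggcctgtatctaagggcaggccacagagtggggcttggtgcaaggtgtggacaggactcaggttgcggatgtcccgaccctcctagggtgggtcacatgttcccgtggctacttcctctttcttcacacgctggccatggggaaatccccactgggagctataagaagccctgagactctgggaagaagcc
Gkn3, chr6:87388936-87389185, minus strand: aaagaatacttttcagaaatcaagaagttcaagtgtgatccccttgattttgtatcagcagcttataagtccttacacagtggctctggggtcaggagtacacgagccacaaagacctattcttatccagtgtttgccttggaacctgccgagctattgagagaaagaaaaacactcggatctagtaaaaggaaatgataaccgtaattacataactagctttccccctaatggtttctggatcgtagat
Tnfrsf19, chr14:61037988-61038237, minus strand: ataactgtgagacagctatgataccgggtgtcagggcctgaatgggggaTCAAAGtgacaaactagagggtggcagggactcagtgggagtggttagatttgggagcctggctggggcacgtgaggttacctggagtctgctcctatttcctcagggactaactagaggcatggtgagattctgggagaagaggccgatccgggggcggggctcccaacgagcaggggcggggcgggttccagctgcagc
CTTTGA or TCAAAG was present in 1 of the 8 stretches, 201 bases before the second Tnfrsf19 start site, and in 13.8% of all 32851 RefSeq stretches of this length. The other stretches may hold forms of the core that were not searched. The Olfm4 start site used by RefSeq lies 16221 bases inside the GENCODE gene and this Tnfrsf19 site 8503 bases inside it, so these 2 stretches lie within the annotated genes. A match of letters is a description and not a binding site.

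The cells of the deposited tables carry 12 cell type names, and stem cells are those named ISC. The tables hold 4814 and 3821 cells in WT replicates 1 and 2, and 356 and 6243 cells in APC-KO replicates 1 and 2, with 24677647, 21003179, 3009636 and 27285079 UMIs. ISC made up 575, 228, 13 and 1245 of these cells (11.9%, 5.97%, 3.65% and 19.9%). The 13 ISC of APC-KO replicate 1 held 75796 UMIs, against 1409616 to 5985350 in the other 3 libraries, so 1 UMI there is worth 13.2 CPM (counts per 1000000 UMIs of the same sum). APC-KO replicate 1 therefore stands apart in size and makeup, and 51.7% of its kept cells are GOBLET-PRE. Pairs of libraries shared 1 to 8 cell barcodes. Apc itself had 87.2, 77.9, 88.1 and 88.1 CPM over all kept cells of the 4 libraries, in the same order. The labels do not name the floxed exon, and a 3′ count outside the deleted part does not check a deletion.

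Whether ISC carried the markers was described without a test, since the cell names may rest on these genes. Olfm4 lay mostly in ISC: its CPM there was 2888 and 3820 in WT and 2784 and 2349 in APC-KO, and outside ISC 105, 87.6, 31.4 and 207. The highest other type in WT was PANETH (262 and 345 CPM), 11.0-fold below ISC in the mean. Of all Olfm4 UMIs in kept cells, 81.7%, 75.8%, 69.6% and 76.2% lay in ISC in the 4 libraries, although ISC were between 3.65% and 19.9% of cells. Gkn3 had 41.1 and 58.9 CPM in ISC in WT, 106 in APC-KO replicate 1 (8 UMIs) and 49.5 in APC-KO replicate 2, and the next type in WT was SEC-PRO at 19.1 and 16.6 CPM. Tnfrsf19 was sparse, with 5.54 and 10.6 CPM in ISC in WT, 13.2 in APC-KO replicate 1 (1 UMI) and 8.52 in APC-KO replicate 2. No Tnfrsf19 UMI was counted in GOBLET of the 4 libraries (163, 270, 28 and 256 cells). These 3 genes had their highest level in ISC in all 4 libraries.

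**Figure D1:**
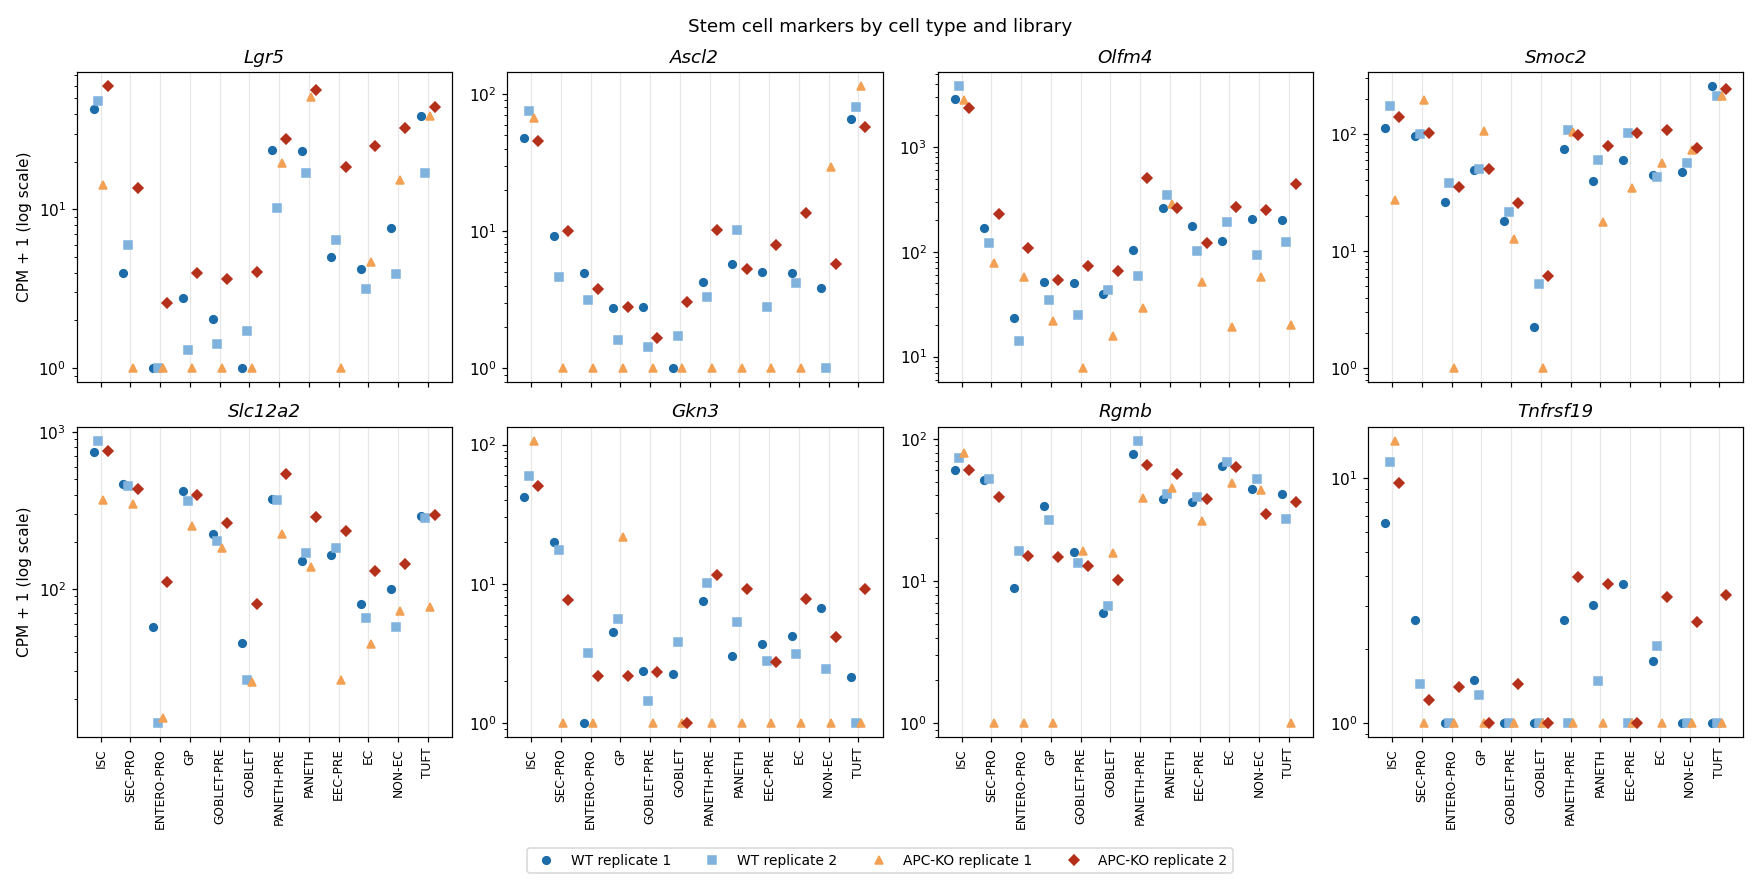
Level of each marker (CPM + 1, log scale) in the 12 cell types, 1 symbol per library; symbols at 1 mark 0 UMIs. Olfm4, Gkn3 and Tnfrsf19 are highest in ISC in all 4 libraries, Smoc2 is highest in TUFT, and the few cells of APC-KO replicate 1 scatter widely.

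Ascl2 and Smoc2 were high in TUFT cells, the chemosensory cells of the epithelium, as well as in ISC. Ascl2 had 46.7 and 73.8 CPM in ISC and 64.9 and 79.5 CPM in TUFT in WT, and 66.0 (5 UMIs) and 44.3 in ISC and 114 (6 UMIs) and 56.8 in TUFT in APC-KO. The WT ranges of these 2 types overlapped, while the next type, PANETH, was 8.65-fold below ISC in the mean at 4.74 and 9.18 CPM. Ascl2 was higher in TUFT than in ISC in each of the 4 libraries. Smoc2 had 255 and 208 CPM in TUFT against 111 and 172 in ISC in WT, and 208 (11 UMIs) and 240 in TUFT against 26.4 (2 UMIs) and 139 in ISC in APC-KO, so TUFT exceeded ISC in all 4 libraries and the WT ranges did not overlap. Summed tuft marker genes reached 5192 and 5771 CPM in WT TUFT cells and 2840 and 3806 CPM in APC-KO TUFT cells, so these cells carried their defining genes.

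Lgr5 had 42.0 and 46.8 CPM in ISC in WT. TUFT followed with 37.6 and 15.9 CPM, then PANETH with 22.4 and 15.9 and PANETH-PRE with 22.7 and 9.15; the ISC range lay above that of TUFT, and the ranges of TUFT, PANETH and PANETH-PRE overlapped. In APC-KO replicate 2, Lgr5 had 58.8 CPM in ISC, 55.3 in PANETH and 42.9 in TUFT. In APC-KO replicate 1 it had 13.2 in ISC (1 UMI), 49.7 in PANETH (9 UMIs) and 37.9 in TUFT (2 UMIs). Lgr5 was at 0 UMIs in ENTERO-PRO in 3 libraries and at 4 UMIs in APC-KO replicate 2.

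Slc12a2 and Rgmb spread over more types. Slc12a2 in WT was ordered from ISC (741 and 880 CPM) through SEC-PRO (463 and 454), GP (423 and 363) to PANETH-PRE (373 and 366), with overlap only between GP and PANETH-PRE among these; the APC-KO values in ISC were 369 (28 UMIs) and 753. Rgmb was highest in PANETH-PRE in WT (77.9 and 96.1 CPM), followed by ISC (59.2 and 72.4) and EC (63.9 and 67.3), whose ranges overlapped. In APC-KO, Rgmb had 79.2 (6 UMIs) and 59.3 CPM in ISC and 37.3 (4 UMIs) and 64.7 in PANETH-PRE. In WT replicate 1, 23.0% of the Rgmb UMIs and 30.9% of the Slc12a2 UMIs lay in ISC, against 55.2% for Lgr5 and 56.3% for Ascl2.

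The share of ISC with at least 1 UMI depends on depth, so cells were also thinned to 2000 UMIs, which kept 555 of 575, 221 of 228, 10 of 13 and 1212 of 1245 ISC. Olfm4 was found in 86.4% and 83.3% of ISC in WT and 61.5% and 88.4% in APC-KO before thinning, and in 76.9%, 77.4%, 60.0% and 82.8% after it. In GOBLET cells, mature mucus cells that should lack these genes, the thinned Olfm4 shares were 6.75%, 4.81%, 0% of 27 cells (exact 95% upper bound 12.8%) and 10.2%. Median depth before thinning was 6249, 6579.5, 6309 and 4515 UMIs in ISC and 4904, 5252, 6906 and 3624 in GOBLET. Slc12a2 was found in 64.0%, 71.5%, 40% and 71.4% of thinned ISC and in 12.3%, 6.67%, 7.41% and 14.9% of thinned GOBLET cells. For Smoc2 the thinned ISC shares were 21.1%, 28.1%, 0% of 10 cells and 25.4%, and the GOBLET shares 0% to 0.784%. Other types lay closer to ISC than GOBLET did. Thinned Slc12a2 shares in SEC-PRO were 57.5%, 53.4%, 25% (1 of 4 cells) and 54.9%. Thinned Smoc2 shares in TUFT were 38.0%, 27.7%, 12.5% (1 of 8 cells) and 38.4%. Thinned Olfm4 shares in PANETH were 17.9%, 16.5%, 56.25% (9 of 16 cells) and 21.9%.

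The other 5 markers were seen in few stem cells even where their summed level was clear. Lgr5 was found in 15.7% and 20.2% of ISC in WT and 7.69% (1 of 13 cells) and 20.6% in APC-KO, and after thinning in 8.11%, 7.24%, 0% and 11.1%. The thinned shares of Ascl2 were 8.29%, 12.2%, 10.0% and 8.58%, those of Rgmb 11.2%, 11.8%, 0% and 11.3%, and those of Gkn3 7.57%, 10.4%, 10.0% and 6.60%. Tnfrsf19 was at 1.08%, 2.71%, 0% and 1.82%. A share of 0 among the 10 thinned ISC of APC-KO replicate 1 has an exact 95% upper bound of 30.8%. In the PANETH cells of WT, with medians of 12643.5 and 10371.5 UMIs, Lgr5 was found in 21.7% and 13.5% of cells before thinning and in 3.77% and 4.00% after it.

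**Figure D2:**
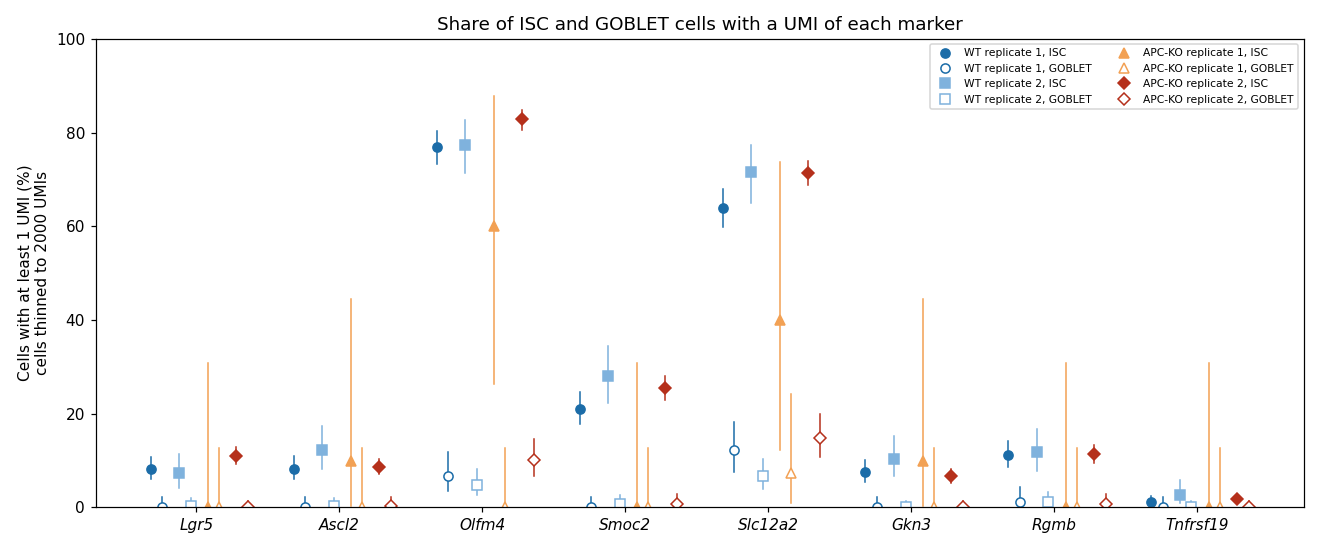
Share of cells with at least 1 UMI after thinning to 2000 UMIs (percent, exact binomial 95% intervals) in ISC (filled) and GOBLET (open) of each library. Olfm4 and Slc12a2 are found in most ISC of 3 libraries, the other markers in few, and the intervals of APC-KO replicate 1 with its 10 thinned ISC are wide.

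Within ISC the markers were found together in part of the cells. At 2000 UMIs per cell the median ISC held 2 of the 8 markers in WT replicates 1 and 2 and APC-KO replicate 2, and 1 in APC-KO replicate 1. At least 3 markers were found in 33.2%, 38.9%, 10.0% and 37.8% of ISC. In SEC-PRO cells, the type of secretory progenitors, the shares were 5.85%, 5.53%, 0% of 4 cells and 6.39%. In TUFT they were 8.45%, 10.1%, 12.5% of 8 cells and 11.6%, and in PANETH-PRE 8.33%, 5.10%, 9.09% of 11 cells and 10.8%. Of the Lgr5-positive ISC, 45 of 45, 16 of 16 and 131 of 134 also had Olfm4 in WT replicates 1 and 2 and APC-KO replicate 2, against 74.9%, 75.6% and 81.0% of Lgr5-negative ISC. Gkn3 was found in 22.2%, 43.8% and 13.4% of Lgr5-positive ISC and in 6.27%, 7.80% and 5.75% of Lgr5-negative ISC of the same libraries. No thinned ISC of APC-KO replicate 1 had an Lgr5 UMI.

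Over the 12 types in WT, the genes outside the list with the most similar pattern were found by Pearson's r of log2(CPM + 1) among 8988 genes, as a description without a test. The points share libraries and depth. Olfm4 was followed most closely by Scn2b (r = 0.91), Nr2e3 (r = 0.83) and Cttnbp2 (r = 0.79), and Tnfrsf19 by Nr2e3 (r = 0.93), Scn2b (r = 0.91) and Igfbp4 (r = 0.82). Lgr5 was closest to Napepld (r = 0.85), Arhgdig (r = 0.85) and Cited4 (r = 0.80), and Ascl2 to Ripor2 (r = 0.91), Kcnq1ot1 (r = 0.90) and Dapk2 (r = 0.88). Smoc2 was closest to Pitrm1 (r = 0.95), Polr1e (r = 0.94) and Nol8 (r = 0.93), and Slc12a2 to Avpi1 (r = 0.92), Cad (r = 0.91) and Phgdh (r = 0.89). Gkn3 was closest to Brca1 (r = 0.88), Chek1 (r = 0.87) and Slfn9 (r = 0.87), and Rgmb to Slc41a1 (r = 0.93), Zfp503 (r = 0.91) and Slc39a10 (r = 0.91).

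Whether Apc loss changed the markers in the sorted population was tested with edgeR on UMIs summed over all kept cells. No member passed (0 of 8; over all genes 0 of 13345 were called, 0%), and the 2 APC-KO libraries lay on opposite sides of WT: APC-KO replicate 1 was the lowest and APC-KO replicate 2 the highest of the 4 libraries for all 8 markers, so 0 of 8 had groups that did not overlap, against 34.5% of all genes tested. Lgr5 had 10.6 and 6.43 CPM in WT and 5.32 and 25.3 in APC-KO, a log2 difference of 1.02 (SE 0.64; edgeR adjusted p = 1.00). Olfm4 had 491 and 338 CPM in WT and 101 and 677 in APC-KO, a log2 difference of -0.05 (SE 0.81; edgeR adjusted p = 1.00). At an unadjusted p under 0.05 edgeR gave 495 genes, and DESeq2's Wald test called 23 genes after adjustment. In sums over mixed cells, fewer cells of a type and less RNA per cell cannot be told apart, and the share of ISC differed between the APC-KO libraries (3.65% and 19.9%). Outside ISC, APC-KO replicate 1 was still the lowest library for 7 of the 8 markers and APC-KO replicate 2 the highest for 6 of 8. The part of the ISC share in the order was not tested. How many of all genes had this order was not counted, so it is not shown to be particular to the markers. Equal weight was also given to each cell type with at least 10 cells in every library, which left out GP, SEC-PRO and TUFT. The log2 difference of Lgr5 was then 0.64 (limma on log2(CPM + 1), adjusted p = 0.802). With a library of a genotype left out, that genotype has 1 library and the fit assumes that it varies like the other genotype. Without APC-KO replicate 1, edgeR called 483 of 13877 genes and, of the 8, Lgr5 alone, with a log2 difference of 1.58 (SE 0.25; adjusted p = 0.0351), and without APC-KO replicate 2 its difference was -0.48.

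The same question within ISC gave no call for the 8 markers, while 350 of 9792 genes were called (3.57%), 224 higher (2.29%) and 126 lower (1.29%) in APC-KO. The 2 APC-KO libraries enter that fit with 13 and 1245 ISC. Without APC-KO replicate 1, 786 of 10724 genes were called and again none of the markers, Slc12a2 moved from -0.38 to -0.035, and Smoc2 moved from -0.11 to 0.067. The log2 differences were 0.43 for Lgr5 (SE 0.23; edgeR adjusted p = 0.441), -0.28 for Ascl2 (SE 0.23), -0.37 for Olfm4 (SE 0.29), -0.11 for Smoc2 (SE 0.24), -0.38 for Slc12a2 (SE 0.29), 0.18 for Gkn3 (SE 0.23), -0.03 for Rgmb (SE 0.21) and 0.31 for Tnfrsf19 (SE 0.46). The median over the 8 was -0.07, against -0.01 over all genes tested. Olfm4 was the 1 marker whose CPM did not overlap between the groups, lower in both APC-KO libraries, where 26.2% of all genes tested lay apart in this direction. Its adjusted p was 0.666 in edgeR.

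The share of ISC with a UMI of a marker was compared by a two-sided exact permutation test, which with 2 libraries against 2 cannot go below 0.33. The mean share of Lgr5-positive ISC was 17.9% ± 3.20 (SD, n = 2) for WT and 14.2% ± 9.16 (SD, n = 2) for APC-KO (exact permutation p = 1.00). Olfm4 was found in 84.9% ± 2.19 (SD, n = 2) and 75.0% ± 19.0 (SD, n = 2), with exact permutation p = 1.00. For the 8 markers the exact permutation p ranged from 0.33 to 1.00, and from 0.889 to 1.00 after adjustment over the 8. Of the 8 markers, Gkn3 and Rgmb alone were found in a smaller share of ISC in both APC-KO libraries than in both WT libraries. Gkn3 had 16.3% and 20.2% in WT and 15.4% (2 of 13 cells) and 13.8% in APC-KO. Rgmb had 26.8% and 28.9% in WT and 23.1% (3 of 13 cells) and 22.5% in APC-KO. The exact binomial intervals in APC-KO replicate 1, 1.92% to 45.4% for Gkn3 and 5.04% to 53.8% for Rgmb, span the WT values. Median ISC depth was lower in APC-KO replicate 2 (4515 UMIs) than in WT (6249 and 6579.5). After thinning, the groups overlapped for both genes. The share of all genes lying apart in this way is not given here.

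**Figure D3:**
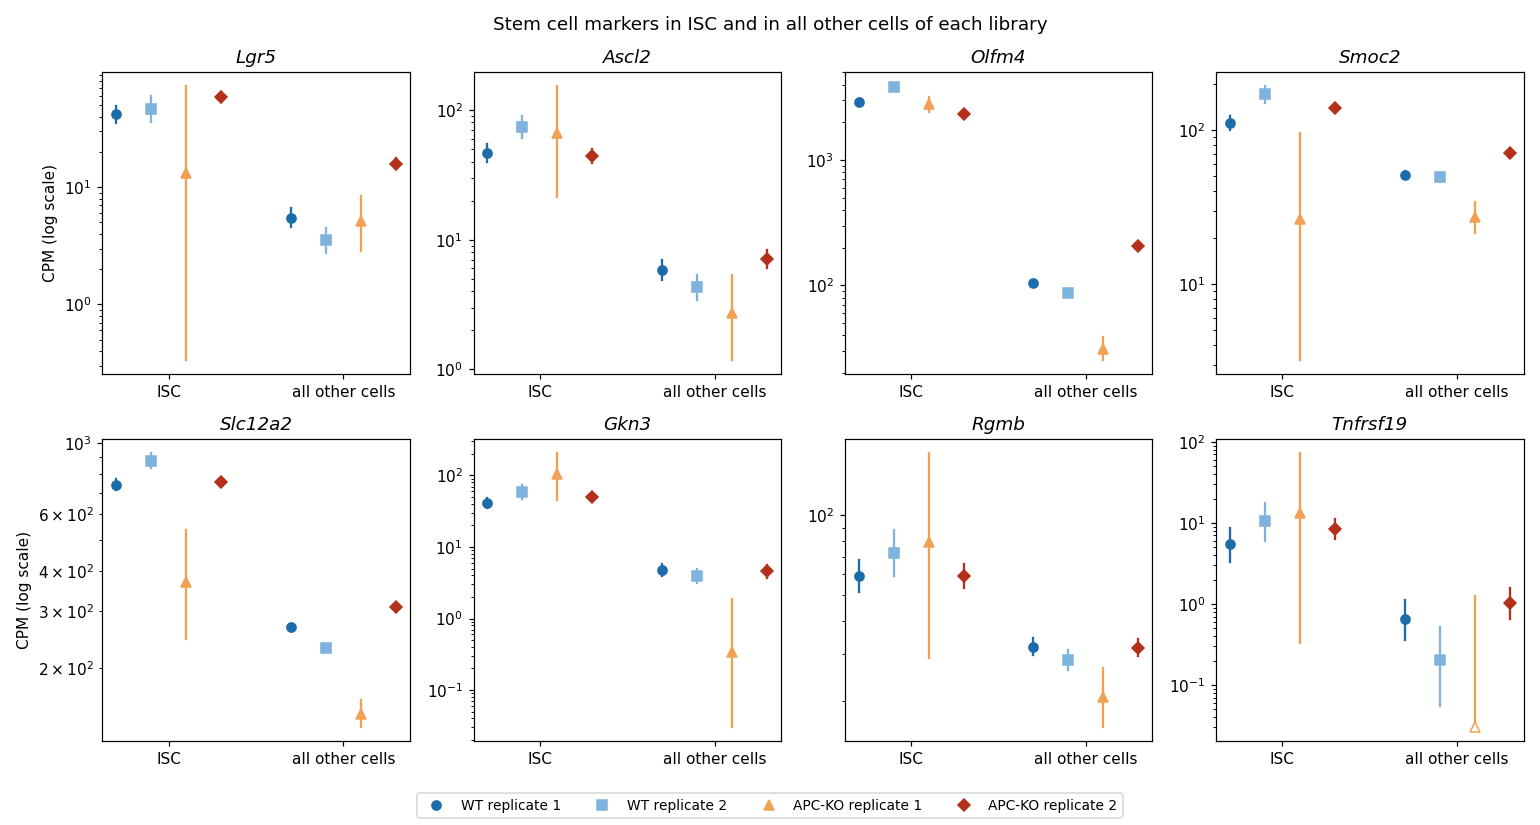
CPM (log scale) of each marker in ISC and in all other kept cells of each library, with exact Poisson 95% intervals, which cover counting error only; the open symbol at the bottom marks 0 UMIs. Lgr5 outside ISC is 15.9 CPM in APC-KO replicate 2 and 3.52 to 5.51 in the other 3 libraries.

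Outside ISC, too, no marker passed (0 of 8; 0 of 13159 genes, 0%; 697 genes at an unadjusted p under 0.05, and DESeq2 called 46). Lgr5 had 5.51 and 3.52 CPM in WT and 5.11 (15 UMIs) and 15.9 CPM in APC-KO, so 1 APC-KO library lay within the WT range and the other well above it; the log2 difference was 1.41 (SE 0.48; edgeR adjusted p = 0.890). Without APC-KO replicate 1, edgeR called 1062 of 13637 genes, 691 of them higher, and among these were Lgr5 (1.83, adjusted p = 0.00612), Olfm4 (1.12, adjusted p = 0.00668) and Smoc2 (0.51, adjusted p = 0.0486). Without APC-KO replicate 2, edgeR called 111 of 13392 genes, and Olfm4 was among those lower in APC-KO (-1.43, adjusted p = 0.0125).

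The genotype effect in ISC was then compared with that in all other cells by an interaction term, which called 149 of 11579 genes (1.29%), 131 of them (1.13%) with a smaller ISC excess in APC-KO and 18 (0.155%) with a larger one. Lgr5 was the 1 marker called. Its level in ISC was 7.63 and 13.3 times that in other cells in WT, and 2.58 times (from 1 UMI) and 3.70 times in APC-KO. The 95% interval of the value from 1 UMI, 0.0613 to 16.8, spans both WT values. The interaction was -1.31 on the log2 scale (SE 0.27; edgeR adjusted p = 3.45e-04). It was -1.28 without APC-KO replicate 1 (edgeR adjusted p = 2.99e-05) but missed the threshold without WT replicate 1 (-1.79, adjusted p = 1.00), without WT replicate 2 (-1.11, adjusted p = 1.00) and without APC-KO replicate 2 (-2.30, adjusted p = 0.645, where the median over all genes was -0.76), and in DESeq2 (-1.44, adjusted p = 1.00). The other 7 markers had interactions from -0.81 (Tnfrsf19) to 0.20 (Gkn3), with edgeR adjusted p from 0.291 to 0.994. Olfm4, at -0.48 (SE 0.23; edgeR adjusted p = 0.536), depended on which APC-KO library was kept: it passed with a smaller ISC excess without APC-KO replicate 1 (-1.53, adjusted p = 2.45e-31) and with a larger one without APC-KO replicate 2 (0.94, adjusted p = 6.80e-05). These fits called 345 of 13394 and 103 of 11385 genes. Gkn3 passed without APC-KO replicate 2 (4.35, edgeR adjusted p = 0.0329), on 8 UMIs in ISC and 1 outside it in APC-KO replicate 1. Free RNA can add UMIs to every cell of a library. Lgr5 in barcodes of 1 to 50 UMIs had 14.5, 14.1, 8.01 and 24.4 CPM in the 4 libraries, highest in APC-KO replicate 2 as in the cells outside ISC. With free RNA subtracted at 5%, the interaction was -1.45 (edgeR adjusted p = 9.08e-05). The 5% was a fixed setting and was not estimated from the libraries, so the part of free RNA in the Lgr5 values was not tested.

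By type, 8 further types had at least 10 cells in every library. Of 64 pairs of a marker and a type, 31 passed the filter on low counts and were tested; 2 were called, both Olfm4. Over all genes tested, the share called was 0% in EC, 0.654% in EEC-PRE, 0.0788% in ENTERO-PRO, 0.0837% in GOBLET, 0.00974% in GOBLET-PRE, 0.113% in NON-EC, 1.41% in PANETH and 1.53% in PANETH-PRE. In ENTERO-PRO, the enterocyte progenitors, Olfm4 had 22.4 and 13.0 CPM in WT and 56.2 (4 UMIs) and 107 in APC-KO. Both APC-KO libraries were above WT, but the 4 UMIs of APC-KO replicate 1 all came from 1 of 11 cells. The share of cells with Olfm4 was 12.1% and 7.69% in WT and 9.09% and 22.2% in APC-KO. The log2 difference was 2.47 (SE 0.38, edgeR adjusted p = 0.0230). Of the 6348 genes tested there, 0.0473% were called higher, while 13.5% had groups that lay apart in this direction. The call was lost without WT replicate 2 (2.02, edgeR adjusted p = 1.00), without APC-KO replicate 2 (1.55, adjusted p = 0.646), in DESeq2 (2.33, adjusted p = 1.00) and with the replicate block (2.38, adjusted p = 0.579). In PANETH-PRE, the Paneth precursors, Olfm4 had 102 and 57.2 CPM in WT and 28.0 (3 UMIs) and 508 in APC-KO. The rise there was present in 1 of 2 libraries, since APC-KO replicate 1 lay below both WT libraries; the log2 difference was 1.95 (SE 0.45; edgeR adjusted p = 0.0200), with 0.772% of 5568 genes called higher. It turned to -1.42 without APC-KO replicate 2 (edgeR adjusted p = 0.542) and missed the threshold without WT replicate 2 (adjusted p = 0.495), without APC-KO replicate 1 (2.48, adjusted p = 0.178) and in DESeq2 (adjusted p = 1.00). Free RNA held Olfm4 at 827 and 815 CPM in WT and at 237 and 838 CPM in APC-KO, and its part in the 2 calls was not tested.

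Lgr5 in PANETH cells, which sit beside the stem cells in the crypt, had 22.4 and 15.9 CPM in WT and 49.7 (9 UMIs) and 55.3 in APC-KO. Both APC-KO libraries were above WT, but 44.7% of the 6942 genes tested in PANETH lay apart in this direction, and the fitted difference was 0.83 on the log2 scale (SE 0.32; edgeR adjusted p = 0.268). After thinning, Lgr5 was found in 12.5% (2 of 16 cells) and 10.9% of PANETH cells in APC-KO. In EC, Lgr5 had 3.19 and 2.14 CPM in WT and 3.66 (1 UMI) and 23.9 in APC-KO, and in NON-EC 6.63 and 2.91 against 14.3 (1 UMI) and 31.7; it did not pass the filter on low counts in either type. Smoc2 in EC had 43.1 and 41.7 CPM in WT and 54.9 and 106 in APC-KO, higher in both APC-KO libraries, where 14.6% of 8690 genes lay apart in this direction; the log2 difference was 1.13 (SE 0.28; edgeR adjusted p = 0.394). Without APC-KO replicate 1, Lgr5 (3.11, edgeR adjusted p = 0.00486), Olfm4 (0.80, adjusted p = 0.00948), Slc12a2 (0.87, adjusted p = 0.00810) and Smoc2 (1.35, adjusted p = 8.86e-05) passed in EC, where that fit, with 1 APC-KO library against 2 of WT, called 405 of 9390 genes. Without APC-KO replicate 2 instead, 102 of 9412 genes were called in EC, Olfm4 among them in the other direction (-3.01, edgeR adjusted p = 1.48e-06), and Slc12a2 stood at -0.65 (adjusted p = 0.657). In NON-EC, 344 of 8776 genes were called without APC-KO replicate 1, among them Lgr5 (2.68, edgeR adjusted p = 0.00701), Olfm4 (0.79, adjusted p = 0.00922) and Slc12a2 (0.91, adjusted p = 0.00668). Without APC-KO replicate 2, Olfm4 stood there at -1.47 (edgeR adjusted p = 0.428) and Slc12a2 at -0.21.

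Of the 64 pairs, tested or not, 15 had groups that did not overlap in CPM, 9 higher and 6 lower in APC-KO. Over all genes tested the share was 38.9% in EC, 40% in EEC-PRE, 33.9% in ENTERO-PRO, 44% in GOBLET, 41.8% in GOBLET-PRE, 39.3% in NON-EC, 47.6% in PANETH and 33.6% in PANETH-PRE. Rgmb was the lower marker in 3 of the 6. In PANETH-PRE it had 77.9 and 96.1 CPM in WT and 37.3 (4 UMIs) and 64.7 in APC-KO, a log2 difference of -0.58 (SE 0.28; edgeR adjusted p = 0.412), where 16.6% of genes lay apart in this direction. In NON-EC it had 43.6 and 50.9 CPM in WT and 42.8 (3 UMIs) and 28.5 in APC-KO (25.6% of genes), and in EC 63.9 and 67.3 against 47.6 and 62.6 (24.3% of genes); neither passed. Smoc2 in NON-EC had 46.4 and 55.2 CPM in WT and 71.4 (5 UMIs) and 74.5 in APC-KO, where 13.7% of genes lay apart in this direction, and did not pass either. The other 3 lower pairs, Ascl2 in PANETH and Gkn3 in EEC-PRE and GOBLET, did not pass the filter on low counts and had 0 UMIs in APC-KO replicate 1. Rgmb was higher in GOBLET (4.93 and 5.66 CPM against 14.7, from 3 UMIs, and 9.17) and in PANETH (36.6 and 40.1 against 44.2 and 55.3), where its fitted difference was -0.22 (SE 0.29), and Ascl2 was higher in NON-EC, with 2 UMIs in APC-KO replicate 1.

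Among 25 other stem cell and Wnt response genes, 24 were tested in ISC and 1 passed, higher. Over all genes tested in ISC, 3.57% passed and 2.29% were higher. Aqp4, a water channel, had 79.4 and 90.1 CPM in WT and 39.6 (3 UMIs) and 169 in APC-KO, a log2 difference of 0.91 (SE 0.22; edgeR adjusted p = 0.00356) that turned to -1.12 without APC-KO replicate 2. The call was lost without WT replicate 1 (0.66) or WT replicate 2 (0.77) as well, each with an edgeR adjusted p of 1.00. The list's median in ISC was 0.17, against -0.01 over all genes. Axin2, a feedback inhibitor of Wnt signalling, had 127 and 121 CPM in ISC in WT and 26.4 (2 UMIs) and 174 in APC-KO. Outside ISC, 0 of 25 passed and 22 had a difference above 0, with a median of 0.36 against 0.01 over all genes. How many of all genes had a difference above 0 was not counted. The 2 APC-KO libraries did not share a direction: the list's summed CPM outside ISC was 1013 and 964 in WT and 838 and 1232 in APC-KO. In the interaction 2 of 25 were called, against 1.29% of all genes tested, both with a smaller ISC excess in APC-KO. They were Cdca7, a Myc target, at -0.81 (SE 0.19, edgeR adjusted p = 0.00292) and Slc14a1, a urea transporter, at -1.97 (SE 0.57, edgeR adjusted p = 0.0441). Neither passed without WT replicate 1, WT replicate 2 or APC-KO replicate 2 (edgeR adjusted p from 0.705 to 1.00), Slc14a1 also not without APC-KO replicate 1 (adjusted p = 0.0505), and Cdca7 turned to 0.39 without APC-KO replicate 2.

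Of 8 genes of injury-induced or reserve stem cells, 3 could be tested in ISC and 1 was called, lower. Over all genes tested there, 1.29% were called lower. Hopx, a homeodomain-only protein used to mark reserve stem cells, had 149 and 168 CPM in WT and 92.4 (7 UMIs) and 77.4 in APC-KO. It was lower in both APC-KO libraries, where 26.2% of all genes tested in ISC lay apart in this direction. The log2 difference was -0.94 (SE 0.25, edgeR adjusted p = 0.00851). It kept its direction without each library in turn (-0.98 to -0.81) but passed only without APC-KO replicate 1 among these, and it missed the threshold with the replicate block (-0.95, edgeR adjusted p = 0.450). Anxa1 and Msln had 0 UMIs in ISC of every library. Of 7 niche ligands, 5 were tested in ISC and none was called, with a median of -0.49. The most abundant in WT were Dll1 (28.6 and 34.8 CPM), a Notch ligand of secretory progenitors, then Dll4 (14 and 12.1) and Jag1 (9.63 and 14.2); in APC-KO they had 26.4 (2 UMIs) and 19.0, 0 and 5.18, and 13.2 (1 UMI) and 8.02 CPM.

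Markers of other cell types were present in ISC at levels that differed between libraries. Summed goblet markers (6 genes, all with a UMI) had 7852 and 4386 CPM in ISC in WT and 3312 and 5214 in APC-KO. Summed Paneth markers (7 genes) had 3616 and 3265 CPM in WT and 435 (Defa17 and Pnliprp2 at 0) and 1891 in APC-KO, lower in both APC-KO libraries. Summed enterocyte markers (7 genes) had 411 and 424 CPM in WT and 660 (Alpi at 0) and 476 in APC-KO, and summed enteroendocrine markers (7 genes) 465 and 167 (Gip at 0) against 26.4 (5 genes at 0) and 198. Immune and stromal markers stood at 0 to 5.35 CPM. The part of these signals in the marker results was not tested.

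Many barcodes with over 900 genes are not in the deposited tables, whose cells have between 900 and 3000 genes and a mitochondrial share of UMIs below 7%. Barcodes with 3000 genes or more and under 7% mitochondrial UMIs numbered 913 and 758 in WT and 1241 and 524 in APC-KO, so in APC-KO replicate 1 they outnumbered its 356 kept cells. Olfm4 had 1129 and 1347 CPM in these barcodes in WT and 352 and 883 in APC-KO, 1.30 to 3.98 times its level in the kept cells of the same library. The few barcodes with fewer genes and a mitochondrial share below 7% that the tables also leave out (42, 16, 17 and 107) had more Olfm4 than kept cells in 1 of 4 libraries. In the barcodes with 3000 genes or more, Ascl2, Smoc2, Slc12a2, Gkn3 and Tnfrsf19 were likewise higher than in kept cells in 4 of 4 libraries, Lgr5 and Rgmb in 3 of 4. Over all barcodes with more than 900 genes, 7611, 6925, 3038 and 8674 of them, Lgr5 had 14.5 and 13.7 CPM in WT and 6.51 and 27.0 in APC-KO, a log2 difference of 0.33 (SE 0.59; edgeR adjusted p = 0.896).

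**Figure D4:**
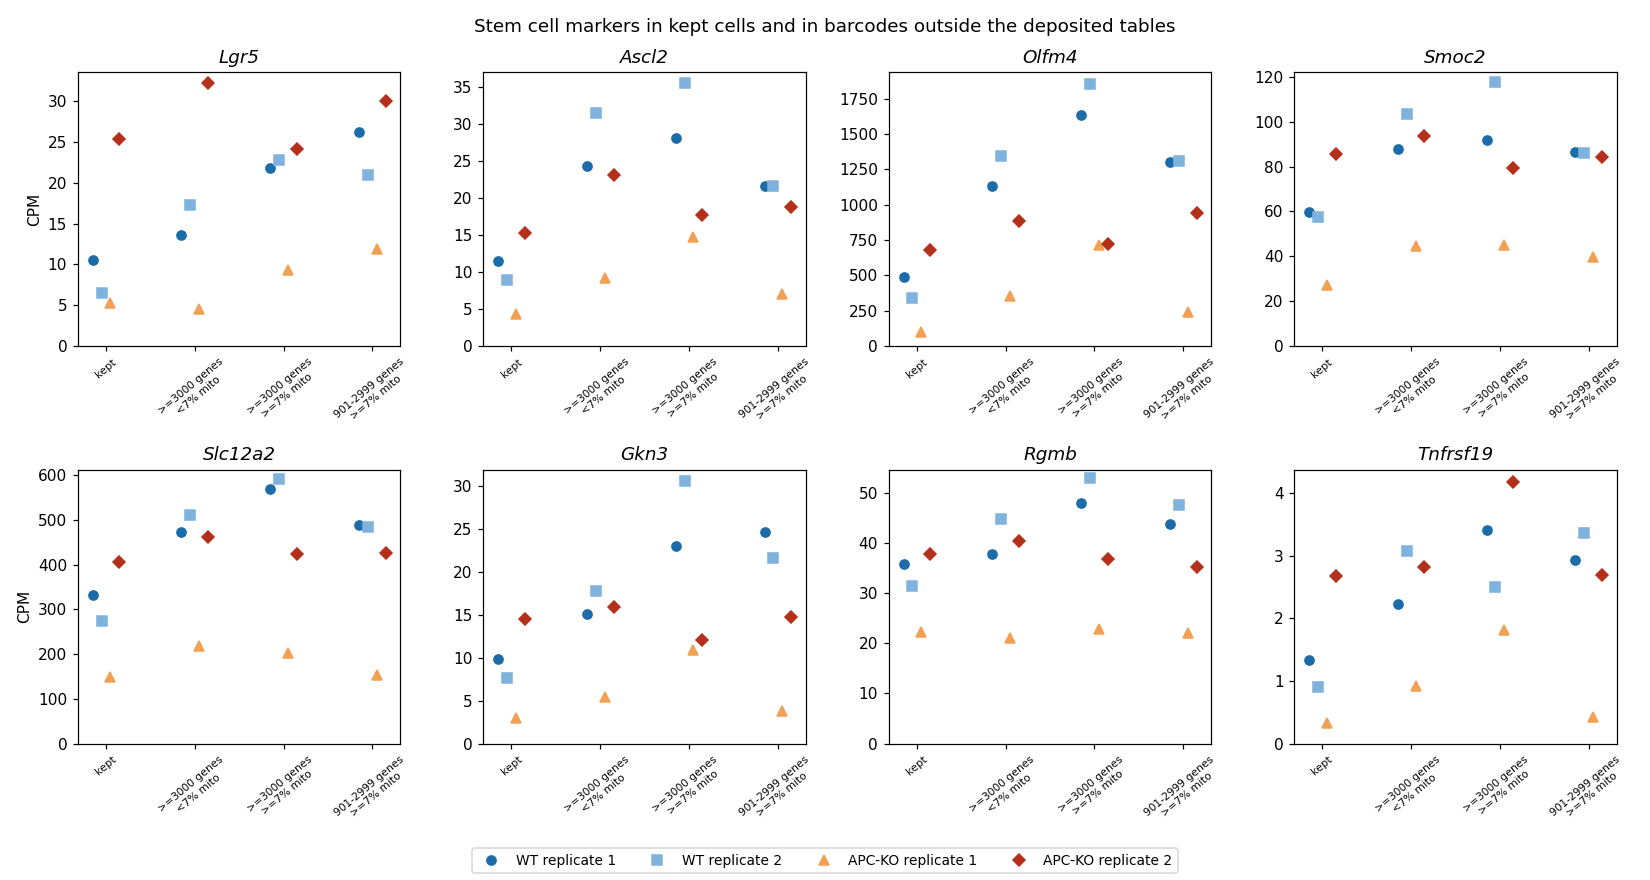
CPM of each marker in kept cells and in 3 classes of barcodes outside the deposited tables, by gene number and mitochondrial share, 1 symbol per library. A small class (fewer than 3000 genes, under 7% mitochondrial) is not drawn; in each class drawn, Olfm4 is higher than in kept cells in all 4 libraries.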

How the data were processed

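UMIs were counted per gene and barcode in 10x Genomics 3′ v3.1 libraries. Per the submitters' processing notes, Cell Ranger 3.0.2 and STAR were used with mm10; the gene annotation and counting settings are not given in the sources used here. The deposited matrices hold raw counts for 6794880 barcodes and are unfiltered, per the file headers. The deposited per-cell tables give UMI and gene counts, the mitochondrial percent and the cell type name; how the authors chose and named the cells is not given in the sources used here. Kept cells have over 900 and under 3000 genes. No doublet caller was run.

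Counts were summed per library and cell type. CPM is a gene's sum per 1000000 UMIs of that sum. Genotypes were compared with edgeR 4.0.16 (quasi-likelihood test, TMM, filterByExpr, Benjamini-Hochberg adjustment over all genes tested, threshold 0.05; R 4.3.3), 2 libraries per genotype; the interaction kept the library as a block. A difference is APC-KO minus WT on the log2 scale and SE its standard error. DESeq2 1.42.0 was an alternative, as were other filters, thinning, free RNA subtraction and leaving out each library. Equal cell type weights were fitted with limma 3.58.1. The scripts were tested on simulated data. Shares were compared by exact permutation tests, and intervals (exact binomial for shares, exact Poisson for CPM) are 95% and cover counting error only. Types with fewer than 10 cells in a library (GP, SEC-PRO and TUFT) were not fitted.

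The 8 members and the gene lists were chosen with earlier results of these data known. All 8 members are named. Of each list, genes past the threshold are named, at most 5 per direction; where none passed, the 3 with the highest mean CPM in WT ISC. Axin2 was named in addition after its values were seen. For each member, the 3 genes with the most similar pattern over the types are named (at least 50 UMIs in WT and 20 CPM in 1 type).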

Additional observations from a re-analysis of the deposited data

Results flagged for a closer look

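The difference between the genotype effect in ISC and that in all other cells passed the interaction test for 3 genes of the lists. It was -1.31 on the log2 scale for Lgr5, -0.81 for Cdca7 and -1.97 for Slc14a1, each with a smaller ISC excess in APC-KO. All 3 calls were lost without WT replicate 1, without WT replicate 2 and without APC-KO replicate 2, and APC-KO replicate 1 held 1 Lgr5 UMI in ISC.

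Olfm4 was abundant in barcodes that the deposited tables leave out. In those with 3000 genes or more and under 7% mitochondrial UMIs it had 1129 CPM in WT replicate 1, 1347 in WT replicate 2, 352 in APC-KO replicate 1 and 883 in APC-KO replicate 2.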

How the results depend on the processing

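Over 593 recomputed values, 445 kept their direction and side of the threshold (counts: within 1.5 times), 36 lost a call, 7 gained one, 73 changed direction and 32 counts moved further. The depth of APC-KO replicate 1 (13 ISC) limits all statements on ISC; the cause of the changes below was not tested. The crossed pairing and the use of all barcodes were chosen after seeing the data.

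Counts of called genes were, over all kept cells, 23 in DESeq2, 21 without the filter, 4 with the replicate block, 1 with the crossed block, 1 over all barcodes with over 900 genes, and 0 to 483 with a library left out (main value 0). In ISC they were 16 in DESeq2 (which gave no adjusted p for 9302 of the 9792 genes), 76 with the replicate block, 68 with the crossed block, 128 with thinned cells, 102 with ISC, ENTERO-PRO and SEC-PRO summed, and 29 to 786 with a library left out (main value 350). Outside ISC they were 46 in DESeq2, 56 without the filter, 6 with the replicate block and 0 to 1062 with a library left out (main value 0). For the interaction they were 1 in DESeq2, 69 with thinned cells and 7 to 345 with a library left out (main value 149). Calls of a marker in a further type were 0 in DESeq2, 6 without the filter, 1 with the replicate block, 0 with at least 20 cells in each library and 0 to 9 with a library left out (main value 2).

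The labels do not say whether the replicate numbers pair the libraries. Deviations of same-numbered libraries correlated at -0.25 over all kept cells, 0.02 in ISC and -0.13 outside ISC. With 2 libraries per genotype, and few cells in APC-KO replicate 1, this correlation cannot decide whether they are paired. With the replicate block, log2 differences changed direction to -0.087 for Ascl2, -0.15 for Smoc2 and -0.092 for Gkn3 over all kept cells, -0.12 for Tnfrsf19 in ISC, and -0.085 for Olfm4 and -0.060 for Smoc2 outside ISC. With the crossed block they did so to -0.069 for Ascl2, -0.13 for Smoc2 and -0.054 for Gkn3 over all kept cells, 0.064 for Rgmb in ISC, and -0.071 for Olfm4 and -0.046 for Smoc2 outside ISC. The block ended the call of Olfm4 in ENTERO-PRO and no other call of a marker, and in ISC the calls of Aqp4 (0.55) and Hopx (-0.95).

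Among other settings, thinning turned Olfm4 to 0.17 and Rgmb to 0.020 over all kept cells and Smoc2 to 0.0024 in ISC, and free RNA subtraction turned Olfm4 to 0.00069 over all kept cells. Equal weights for the cell types with at least 10 cells in each library, fitted with limma, turned Smoc2 to -0.12. All barcodes turned Ascl2 to -0.35, Smoc2 to -0.16 and Gkn3 to -0.42. DESeq2 turned Rgmb to 0.040 in ISC and to 0.038 in the interaction. Leaving ENTERO-PRO and SEC-PRO out too turned Slc12a2 to 0.088, Gkn3 to 0.49 and Rgmb to 0.088 outside ISC. The difference in the share of ISC turned to 1.38 percentage points for Ascl2, 1.27 for Rgmb and -0.353 for Tnfrsf19 at 2 UMIs or more, and to -0.990 for Tnfrsf19 with thinned cells.

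Without APC-KO replicate 2, the median over all genes was -0.32 in ISC and -0.76 in the interaction. With a library left out, log2 differences over all kept cells ranged from -0.48 to 1.58 for Lgr5, -1.04 to 0.59 for Ascl2, -1.84 to 0.72 for Olfm4, -0.90 to 0.56 for Smoc2, -0.82 to 0.44 for Slc12a2, -1.34 to 0.74 for Gkn3, -0.39 to 0.18 for Rgmb and -1.54 to 1.26 for Tnfrsf19. In ISC they ranged from -1.77 to 0.49 for Lgr5, -0.54 to 0.15 for Ascl2, -2.43 to 0.067 for Smoc2, -0.12 to 0.25 for Rgmb, -0.19 to 0.80 for Tnfrsf19 and -1.12 to 1.07 for Aqp4. Outside ISC they ranged from -0.71 to 0.51 for Ascl2, -1.43 to 1.12 for Olfm4, -0.70 to 0.51 for Smoc2, -0.60 to 0.33 for Slc12a2, -3.46 to 0.090 for Gkn3, -0.36 to 0.085 for Rgmb and -5.69 to 1.85 for Tnfrsf19. In the interaction they ranged from -1.15 to 0.69 for Ascl2, -1.53 to 0.94 for Olfm4, -0.21 to 0.43 for Rgmb, -2.41 to 5.51 for Tnfrsf19 and -0.86 to 0.39 for Cdca7. Olfm4 in PANETH-PRE ranged from -1.42 to 2.48. Differences in the share of ISC ranged from -10.2 to 2.73 percentage points for Lgr5, -23.3 to 3.55 for Olfm4, -40.1 to 0.138 for Slc12a2 and -0.532 to 3.14 for Tnfrsf19.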

Other observations

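Barcodes with over 900 and under 3000 genes and 7% mitochondrial UMIs or more, which the deposited tables leave out, also held the markers. They numbered 1574 and 1862 in WT and 961 and 1643 in APC-KO. Olfm4 was found in 48.7% and 40.3% of them in WT and in 19.0% and 50.7% in APC-KO, with 1303, 1310, 241 and 945 CPM. Lgr5 had 26.3 and 20.9 CPM there in WT and 11.9 and 30.0 in APC-KO, higher than in the kept cells of the same library in 4 of 4 libraries. Gkn3 had 24.6 and 21.6 CPM in WT and 3.83 and 14.7 in APC-KO.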
